A study of Mus musculus with 3 samples.

Results

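The genes described here carry glucose into the cell, break it down to pyruvate, and send pyruvate either to lactate or into mitochondria. They were listed by name, with earlier results of these data known. The 34 gene names were matched to the deposited counts table and took 35 of its 22976 rows, because Aldoa has a second row. Expression was measured in NSC-34, a wild-type mouse line that joins neuroblastoma cells to embryonic spinal cord cells rich in motor neurons by fusion, grown on gelatin in high glucose medium with serum. There was 1 library of untreated cells (the control) and 1 library from each of 2 clones that had become resistant to PR20 spontaneously (clone 1 and clone 2). Both clones are labelled as treated with 10 µM PR20 over 3 weeks. PR20 is built of alternating proline and arginine, a dipeptide repeat of the kind translated from the expanded repeat in C9ORF72. Each clone may carry features of its own founder cell, and the labels do not say whether the control was passed through the same weeks of culture or whether peptide was still present at harvest. The labels also do not say whether the clones came from separate selections, so the spread behind the p-values is that of these libraries and may be technical.

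Glycolysis turns glucose into pyruvate and yields a little ATP without oxygen. Pyruvate then has competing fates: lactate dehydrogenase reduces it to lactate, which leaves the cell through monocarboxylate transporters, or the mitochondrial pyruvate carrier takes it to the pyruvate dehydrogenase complex, which makes acetyl-CoA for the tricarboxylic acid cycle. Neurons are known for reliance on mitochondrial oxidation and for isozymes of their own, such as the neuron-specific enolase Eno2, whereas many proliferating and tumour cells send much of their pyruvate to lactate.

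In the clones, most transcripts from glucose uptake to lactate export were higher: of 22 tested rows on this chain 16 rose, 2 fell (Pfkm and Eno2) and 4 did not pass (Hk1, Aldoc, the second Aldoa row and Ldhb). Those for pyruvate entry into mitochondria were lower or did not pass the test. Of 33 rows that could be tested, 16 (48.5%) rose, against 24.3% of all 13705 tested genes. Another 7 (21.2%) fell, against 25.8% of all tested genes, and 10 did not pass. The threshold was an adjusted p of 0.05 in edgeR's quasi-likelihood test. The glucose transporter gene Slc2a1 rose 2.06-fold, Gpi1 1.91-fold, the lactate exporter gene Slc16a3 1.87-fold and Ldha 1.67-fold, while Pdha1 fell to 0.419 times its control level and Mpc1 to 0.549 times. The 16 that rose had log2 fold changes from 0.27 to 1.04 with a median of 0.55, so most of the rises were below 2-fold. The median log2 fold change was 0.24 over the 33 rows and 0.002 over all tested genes.

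With a single control, the spread between replicates came from the clones alone, and the fit drew each gene's spread toward that of other genes. When a coefficient of variation of 0.1 between replicates was preset in place of this fitted spread, 10 members rose (10.5% of all genes did) and 5 fell (15.9% of all genes did). At a preset 0.2, 0 rose (1.14% of all genes did) and only Pdha1 fell (7.24% of all genes did). Unadjusted p at that setting was below 0.05 for 6 higher and 4 lower of 33 members by the same edgeR likelihood ratio test. Over all 13705 genes it was so for 663 higher and 1695 lower. The authors' deposited table, made with DESeq2 from the same libraries, lists 14 members as higher (10.0% of its genes with an adjusted p) and 4 as lower, namely Eno2, Mpc1, Pdha1 and Pfkm (9.77% of its genes).

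**Figure D1:**
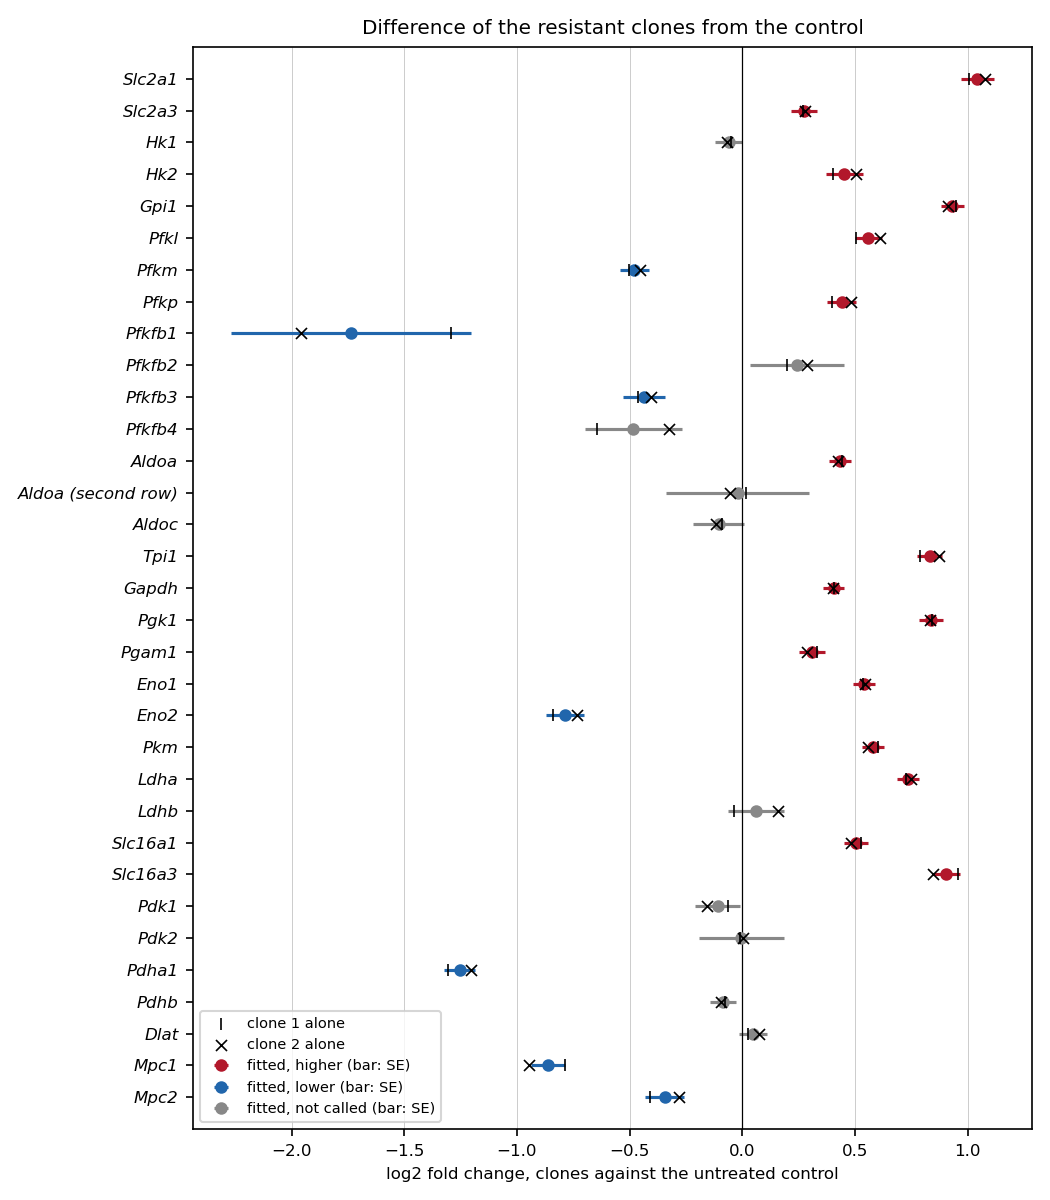
Log2 fold change (clones minus control, edgeR) of the 33 tested rows, ordered along the pathway, with bars of 1 approximate SE, colours for the call, and ticks and crosses for clone 1 and clone 2 alone. Called members on the main chain from glucose uptake to lactate export lie mostly right of 0, and Pdha1, Mpc1, Eno2 and Pfkfb1 lie farthest to the left.

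The libraries held 11700755 counts (control), 11389663 (clone 1) and 11307034 (clone 2), so 3 counts equal 0.256 to 0.265 CPM (counts scaled to library size), the unit of the levels below after scaling by TMM factors. The member genes took 0.954% of all counts in the control (95% Wilson interval 0.948% to 0.959%), 1.29% in clone 1 (1.29% to 1.30%) and 1.28% in clone 2 (1.28% to 1.29%), and these intervals cover counting error only. Of the motor neuron and cholinergic markers, Chat, the acetylcholine-synthesizing enzyme gene, had 7 reads in the control and 0 in both clones. The motor neuron factor genes Mnx1 and Lhx3 had at most 3 reads in any library. All 4 that could be tested fell. These were Ache (554 reads in the control, 231 in clone 1 and 209 in clone 2), Slc18a3 (113, 3 and 1), Isl2 (85, 38 and 33) and Isl1 (72, 23 and 17). The markers summed to 69.3 CPM in the control, 46.1 of it from Ache, and to 26.4 and 23.6 CPM in the clones. Markers of sympathetic neuroblastoma summed to 1022, 597 and 521 CPM, and 7 of 7 fell. Fibroblast and endothelial markers summed to 105, 82.4 and 101 CPM (3 of 6 tested fell), glial markers to 7.82, 6.50 and 6.38 CPM (of 3 tested, 1 had an unadjusted edgeR p below 0.05 and none passed after adjustment), and microglial markers to 1.33, 1.60 and 1.53 CPM. The part of these shifts in the values below was not tested, and in such bulk samples fewer cells of a type and less RNA per cell cannot be told apart.

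Promoters are shown for 5 of the 12 members with the lowest p, those whose 250 bases before the start touch no annotated exon, because the results turn on these genes and because sites of this kind are known to be read by the hypoxia factors (core ACGTG or GCGTG) and by MYC-family proteins (CACGTG, which contains ACGTG on both strands). The bases come from RefSeq on GRCm38.p6, run 5′ to 3′ on the gene's strand, and capitals mark ACGTG or GCGTG on either strand. The windows are chr7:46845554-46845803 (plus strand) for Ldha, chrX:106186850-106187099 (plus) for Pgk1, chr3:104638414-104638663 (plus) for Slc16a1, chr4:150236458-150236707 (plus) for Eno1 and chrX:160138431-160138680 (minus) for Pdha1.
Ldha: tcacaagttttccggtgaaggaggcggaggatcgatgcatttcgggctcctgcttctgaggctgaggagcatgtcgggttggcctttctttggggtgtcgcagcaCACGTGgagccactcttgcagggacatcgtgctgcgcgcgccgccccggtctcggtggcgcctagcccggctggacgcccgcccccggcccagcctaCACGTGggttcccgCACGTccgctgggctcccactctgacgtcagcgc
Pgk1: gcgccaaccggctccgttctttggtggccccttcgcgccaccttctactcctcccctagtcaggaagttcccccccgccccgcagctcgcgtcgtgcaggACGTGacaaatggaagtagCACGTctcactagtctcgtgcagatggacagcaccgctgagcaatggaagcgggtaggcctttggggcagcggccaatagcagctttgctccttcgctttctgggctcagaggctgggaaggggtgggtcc
Slc16a1: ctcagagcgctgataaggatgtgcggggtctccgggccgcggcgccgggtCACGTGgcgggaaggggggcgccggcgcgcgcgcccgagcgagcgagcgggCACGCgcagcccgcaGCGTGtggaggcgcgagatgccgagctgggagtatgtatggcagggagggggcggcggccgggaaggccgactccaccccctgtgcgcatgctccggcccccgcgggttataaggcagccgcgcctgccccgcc
Eno1: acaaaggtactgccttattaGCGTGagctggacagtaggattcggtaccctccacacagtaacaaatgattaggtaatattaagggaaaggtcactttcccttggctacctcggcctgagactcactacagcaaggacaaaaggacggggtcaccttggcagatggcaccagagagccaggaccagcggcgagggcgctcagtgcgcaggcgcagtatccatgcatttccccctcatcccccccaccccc
Pdha1: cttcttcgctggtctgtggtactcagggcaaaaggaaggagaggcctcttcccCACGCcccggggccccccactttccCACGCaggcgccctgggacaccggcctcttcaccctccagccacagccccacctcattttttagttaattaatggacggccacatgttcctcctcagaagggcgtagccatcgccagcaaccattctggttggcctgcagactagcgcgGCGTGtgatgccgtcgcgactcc
Ldha holds CACGTG at 2 places, with matches starting 145 and 48 bases before the start, and a further CACGT 34 bases before it. Pgk1 has ACGTG 150 bases and CACGT 131 bases before the start, and Slc16a1 has CACGTG 200 bases before it. Pdha1, which fell, also holds matches, at 197, 172 and 23 bases before its start.

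Matches to ACGTG or GCGTG were found in 25 of the 33 members with a promoter in the table (75.8%), in 57.3% of 9987 promoters of tested genes and in 38.7% of all 27025 promoters of this length. By call, 11 of 15 members that rose, 5 of 7 that fell and 7 of 9 that did not pass held a match. Every promoter printed above held one. Gpi1, Tpi1, Pkm and Aldoa rose and held none. The first 3 of these are among the 12 with the lowest p, but their windows touch annotated exons and were not printed. CACGTG was in 6 of 33 members (18.2%), in 8.38% of promoters of tested genes and in 6.03% of all promoters. The median GC content was 61.6% in the members, 60.4% in promoters of tested genes and 52.4% in all. All members but Slc2a3 matched the table. A match is a description of the letters and no evidence of binding.

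Glucose enters through facilitative transporters. Slc2a1 (ENSMUSG00000028645.11; GRCm38 chromosome 4, 119108711 to 119137983), which encodes GLUT1, stood at 53.6 CPM in the control, 108 CPM in clone 1 and 113 CPM in clone 2. Both clones lay well above the control, and the log2 fold change was 1.04 ± 0.07 (SE; adjusted p = 9.10e-09 by edgeR), the largest rise among the members. Slc2a3, which encodes GLUT3, the transporter known as the neuronal form, stood at 158, 190 and 191 CPM (log2 fold change 0.27 ± 0.06; edgeR adjusted p = 8.21e-04, DESeq2 adjusted p = 0.0748). Levels per kilobase here and below use the merged annotated exons of a gene, 3506 bases for Slc2a1 and 7245 for Slc2a3. On that scale Slc2a1 made up 41.2% of the pair in the control and 53.9% and 55.0% in the clones. In CPM Slc2a3 was the higher in every library, so which of the pair leads in the clones depends on the length used.

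Hexokinases trap glucose as glucose 6-phosphate. Hk2, the inducible form, rose from 48.2 CPM to 63.7 and 68.3 CPM (log2 fold change 0.45 ± 0.08; edgeR adjusted p = 2.42e-04, DESeq2 adjusted p = 0.0615). Hk1, the form prominent in brain, did not pass, at 147 CPM in the control and 142 and 140 CPM in the clones (log2 fold change -0.06; edgeR adjusted p = 0.418). The hexokinase total per kilobase therefore moved little, from 25.3 to 27.4 and 27.9 CPM per kb. Gpi1 (ENSMUSG00000036427.5; chromosome 7, 34201330 to 34230336), the isomerase that makes fructose 6-phosphate, nearly doubled: it had 475 CPM in the control, 918 in clone 1 and 897 in clone 2 (log2 fold change 0.93 ± 0.05; edgeR adjusted p = 4.32e-10). It had the lowest p of all members.

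Phosphofructokinase commits the sugar to glycolysis, and its isozymes moved apart. Pfkl, the liver-type subunit, rose from 241 CPM to 342 and 369 CPM (log2 fold change 0.56 ± 0.06; edgeR adjusted p = 8.96e-07). Pfkp, the platelet type, rose from 105 to 138 and 147 CPM (0.44 ± 0.06; edgeR adjusted p = 3.06e-05). Pfkm, the muscle type, fell from 112 to 79.3 and 82.1 CPM (-0.48 ± 0.07; edgeR adjusted p = 1.69e-05). Per kilobase, Pfkl made up 46.6% of the 3 transcripts in the control and 60.1% and 60.9% in the clones, whereas Pfkm went from 43.4% to 27.8% and 27.1%. Their sum went from 77.6 to 85.4 and 90.8 CPM per kb, and without lengths from 459 to 560 and 598 CPM.

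The bifunctional PFKFB enzymes set the level of fructose 2,6-bisphosphate, the strongest activator of phosphofructokinase. Of these 4 genes, 2 fell by edgeR's test and none by DESeq2, whose adjusted p was 0.151 for Pfkfb3 and 0.449 for Pfkfb1. Pfkfb3, the form with high kinase activity that is known to be induced in tumours, fell from 44.5 CPM to 32.2 and 33.6 CPM (log2 fold change -0.43 ± 0.09; edgeR adjusted p = 0.00102). Pfkfb1 fell on few reads, with 20 in the control, 7 in clone 1 and 4 in clone 2 (log2 fold change -1.74 ± 0.53; edgeR adjusted p = 0.0129). It shares 123 exon bases with Apex2 on the opposite strand, which had 117, 44 and 62 reads. Whether the counting used strand is not known from the sources used here. Pfkfb4 was at 8.82, 5.61 and 7.01 CPM (edgeR adjusted p = 0.0755) and Pfkfb2 at 6.99, 8.02 and 8.54 CPM (edgeR adjusted p = 0.351).

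In the cleavage and triose steps Aldoa, Tpi1 and Gapdh rose. Aldoa, the main aldolase, went from 1548 CPM to 2102 and 2078 CPM (log2 fold change 0.43 ± 0.05; edgeR adjusted p = 1.89e-06). Its second row held only 36, 34 and 32 reads and did not pass (edgeR adjusted p = 0.963), and the brain aldolase Aldoc stayed at 26.5, 24.9 and 24.4 CPM (edgeR adjusted p = 0.462). Tpi1 (ENSMUSG00000023456.14; chromosome 6, 124810586 to 124814296), which interconverts the triose phosphates, had 269.6 CPM in the control against 466 and 494 CPM in the clones (log2 fold change 0.83 ± 0.06; edgeR adjusted p = 5.48e-09). Gapdh, often used as a reference gene, rose as well, from 1476 to 1955 and 1954 CPM (0.41 ± 0.05; edgeR adjusted p = 3.66e-06).

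Transcripts of the ATP-yielding enzymes followed the same direction. Pgk1 (ENSMUSG00000062070.12; chromosome X, 106187100 to 106203699), the first of these enzymes, was at 176 CPM in the control, 316 in clone 1 and 315 in clone 2 (log2 fold change 0.84 ± 0.05; edgeR adjusted p = 4.23e-09). Pgam1, the mutase that follows, rose from 177 to 223 and 216 CPM (0.31 ± 0.06; edgeR adjusted p = 2.61e-04). Pkm (ENSMUSG00000032294.17; chromosome 9, 59656368 to 59679375), pyruvate kinase, rose from 1561 to 2370 and 2299 CPM (0.58 ± 0.05; edgeR adjusted p = 9.18e-08). Counts per gene do not separate its M1 and M2 splice forms.

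The enolases went in opposite directions. Eno1 (ENSMUSG00000063524.13; chromosome 4, 150236721 to 150248879), the ubiquitous form, rose from 556 CPM to 806 and 812 CPM (log2 fold change 0.54 ± 0.05; edgeR adjusted p = 2.01e-07). Eno2, the neuronal form, fell from 65.2 to 36.4 and 39.2 CPM (-0.79 ± 0.08; edgeR adjusted p = 1.24e-06), in the libraries in which the neuronal markers above were lower. Its share of the pair per kilobase went from 11.8% to 4.91% and 5.23%. Eno1b, a near-identical copy of Eno1 on chromosome 18, had 1101, 1574 and 1639 reads (0.65 ± 0.06; edgeR adjusted p = 5.76e-07), so reads of Eno1 may be split between the copies. The median log2 fold change of all tested genes on chromosome 18 was 0.41, the highest among the autosomes and X. Copies of Ldha, Aldoa, Gapdh, Pgam1 and Pgk1 had at most 12 reads in any library.

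**Figure D2:**
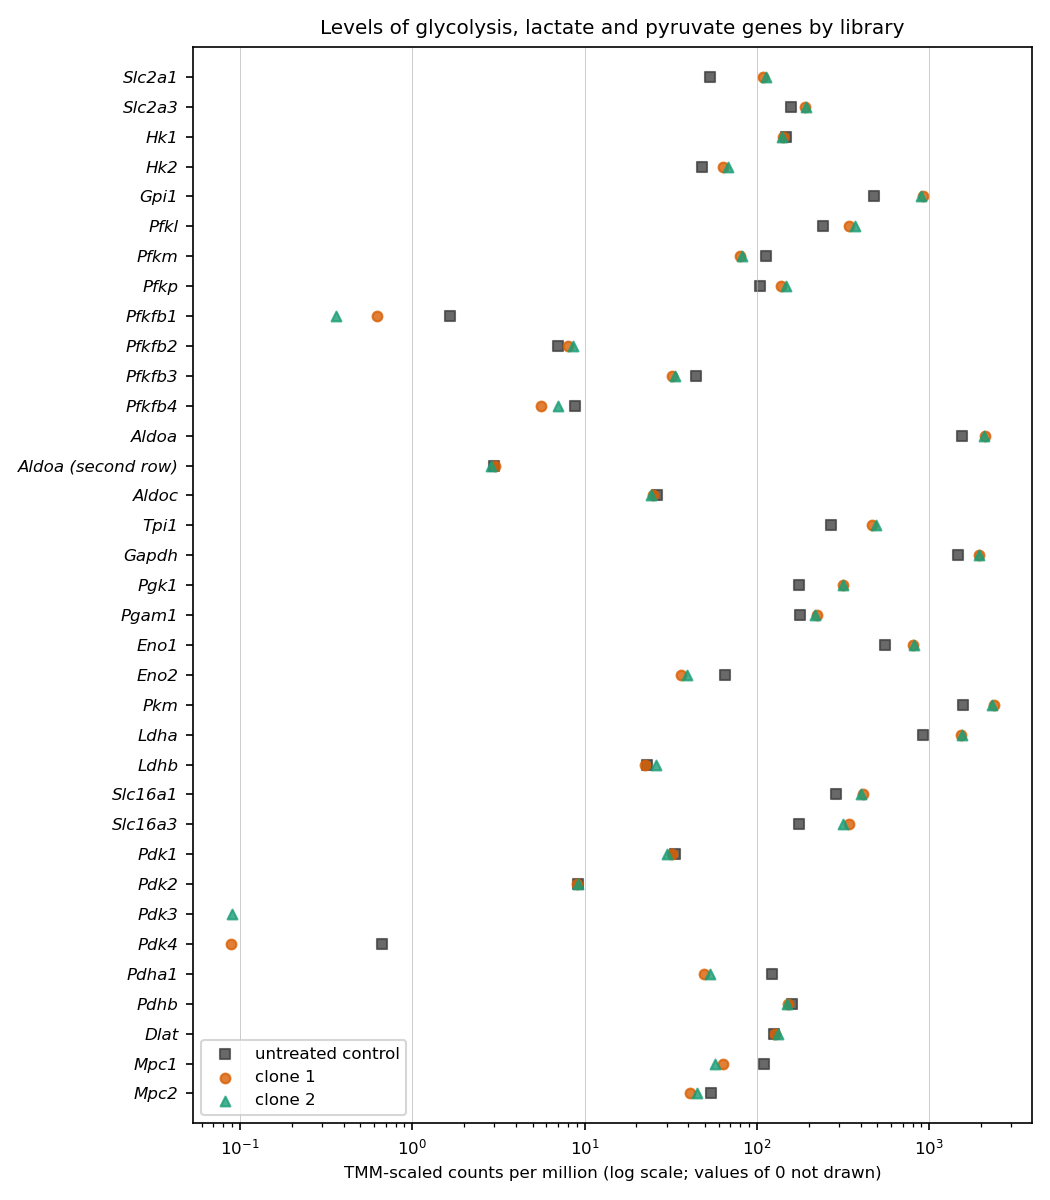
Level of each member in the 3 libraries (CPM, log axis), ordered along the pathway, with 1 point per library and values of 0 not drawn. For Slc2a1, Gpi1, Tpi1, Pgk1, Ldha and Slc16a3 both clone points lie clearly to the right of the control point, and for Pdha1, Mpc1 and Eno2 clearly to the left.

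Transcripts of Ldha and of both lactate transporters rose together. Ldha (ENSMUSG00000063229.15; chromosome 7, 46841475 to 46855627), the subunit that favours lactate formation and whose promoter is printed above, stood at 922 CPM in the control, 1524 in clone 1 and 1550 in clone 2 (log2 fold change 0.74 ± 0.05; edgeR adjusted p = 5.23e-09). Ldhb, the subunit that favours pyruvate formation, did not pass, at 23.1, 22.5 and 25.8 CPM (edgeR adjusted p = 0.702), and made up 5.03% of the pair per kilobase in the control and 3.02% and 3.39% in the clones. Slc16a3 (ENSMUSG00000025161.16; chromosome 11, 120948480 to 120960868), which encodes the lactate exporter MCT4, rose from 175 to 341 and 315 CPM (0.91 ± 0.06; edgeR adjusted p = 5.48e-09). Slc16a1 (ENSMUSG00000032902.1; chromosome 3, 104638668 to 104658462), which encodes MCT1, rose from 288 to 414 and 402 CPM (0.50 ± 0.05; edgeR adjusted p = 9.58e-07). For each of these transporters, the gap between control and clones was wider than that between the clones.

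Transcripts of the mitochondrial pyruvate carrier went the other way. Mpc1 (ENSMUSG00000023861.17; chromosome 17, 8282904 to 8297661), an obligate subunit of the pyruvate carrier, fell from 110 CPM to 63.8 and 57.0 CPM (log2 fold change -0.86 ± 0.08; edgeR adjusted p = 1.16e-07). Its partner Mpc2 fell from 54.5 to 41.0 and 44.9 CPM (-0.35 ± 0.09; edgeR adjusted p = 0.00369, DESeq2 adjusted p = 0.226). The carrier's summed level per kilobase was 60.2 in the control and 36.2 and 33.5 in the clones. Mpc1 shares 480 exon bases with 4930506C21Rik on the opposite strand, which had at most 2 reads in any library.

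Of the 3 subunit transcripts of the pyruvate dehydrogenase complex among the members, 1 was called. Pdha1 (ENSMUSG00000031299.10; chromosome X, 160122209 to 160138413), which encodes the E1 alpha subunit that kinases phosphorylate, fell from 123 CPM to 49.6 and 53.3 CPM, the largest fall among members with more than 100 control reads (log2 fold change -1.26 ± 0.07; edgeR adjusted p = 6.73e-10). Pdhb, the E1 beta subunit, stood at 159, 151 and 149 CPM (edgeR adjusted p = 0.240), and Dlat, the E2 subunit, at 125, 127 and 132 CPM (edgeR adjusted p = 0.539). Further subunits of the complex, Dld and Pdhx, are not members and did not pass either. Dld stood at 167, 170 and 179 CPM (edgeR adjusted p = 0.407) and Pdhx at 31.2, 32.1 and 37.2 CPM (edgeR adjusted p = 0.273). Relative to Pdha1, Pdhb was higher by 1.23 and 1.11 and Dlat by 1.33 and 1.28 on the log2 scale in clone 1 and clone 2 than in the control. Pdha1 shares 603 exon bases with Map3k15 on the opposite strand, which had 9, 6 and 4 reads. In all, 13 of the 35 rows share exon bases with another gene in Gencode M21. Among called members, Pfkp shares 748 bases with Pitrm1 on the opposite strand, which had 1470, 1816 and 1628 reads (log2 fold change 0.33), and Aldoa shares 25 bases with Fam57b, which had 465, 30 and 34 reads. The part of such reads in the members' values was not tested.

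The kinases that switch this complex off did not pass the test. Pdk1, the hypoxia-responsive form, was at 33.5, 32.0 and 30.0 CPM (log2 fold change -0.11; edgeR adjusted p = 0.392), and Pdk2 at 9.15, 9.09 and 9.17 CPM (edgeR adjusted p = 0.988). Pdk3 had 0, 0 and 1 reads and Pdk4 had 8, 1 and 0 reads, too few to be tested. The Pdk4 ratio of clones to control was 0.0672, with a 95% exact interval of 0.00151 to 0.501 that covers counting error only.

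**Figure D3:**
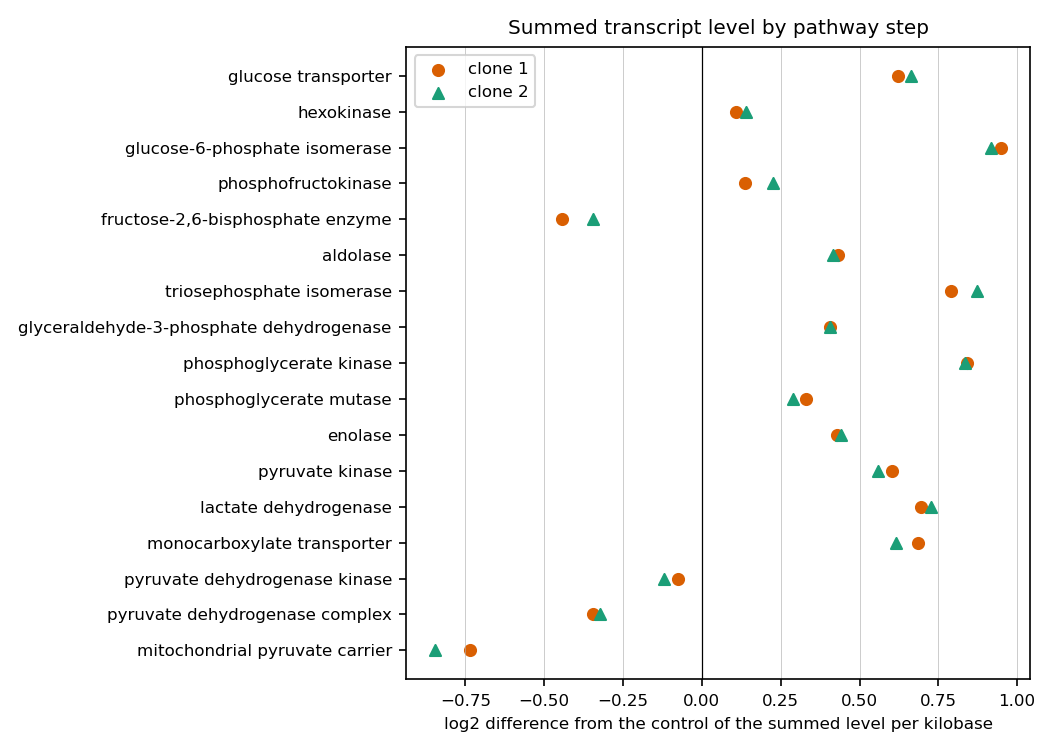
Log2 difference from the control of the summed level per kilobase of merged exons at each pathway step, with 1 point per clone. The steps from glucose transport to lactate transport lie right of 0 in both clones except the fructose-2,6-bisphosphate enzymes, and the pyruvate carrier lies farthest to the left at -0.73 and -0.85.

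Levels of different genes are given per kilobase of the merged annotated exons of each gene. That length can exceed the length of the transcript expressed, to a degree that was not measured. The order of genes below therefore holds for these lengths only. In CPM without lengths, Pkm (1561), Aldoa (1548), Gapdh (1476) and Ldha (922) came in that order in the control. In the control Aldoa was highest at 532 CPM per kb, followed by Gapdh at 357, Pkm at 312 and Ldha at 278. In the clones Aldoa stayed first at 722 and 714, and Gapdh (473 and 473) lay above Ldha (460 and 468) in both. The values of Pkm (474 and 460) spanned those of Gapdh and Ldha, so Pkm could not be placed between them. Lactate dehydrogenase as a step went from 293 to 475 and 485 CPM per kb and monocarboxylate transport from 98.0 to 158 and 150. The 3 member subunits of the pyruvate dehydrogenase complex, without Dld and Pdhx, summed to 99.8, 78.5 and 79.8. All of these are sums of transcript levels and not of enzyme activity.

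The balance within families can be read as a log2 ratio of the pair, clone minus control. For Eno2 to Eno1 the difference was -1.38 in clone 1 and -1.28 in clone 2, and for Pfkm to Pfkl it was -1.01 and -1.07. It was -0.76 and -0.59 for Ldhb to Ldha, -0.74 and -0.80 for Slc2a3 to Slc2a1, and -0.53 and -0.54 for Aldoc to Aldoa. For Pfkfb3 to Pfkfb2 it was -0.66 and -0.69, and for Pfkfb4 to Pfkfb2 -0.84 and -0.61. For Pfkp to Pfkl it was close to 0, at -0.10 and -0.13, and likewise for Pdk1 to Pdk2, at -0.05 and -0.16. The balance moved toward Hk2 over Hk1 by 0.45 and 0.57, and toward Slc16a3 over Slc16a1 by 0.43 and 0.37, and toward Mpc2 over Mpc1 by 0.37 and 0.67. No test was run on these ratios, which have 1 control value each.

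**Figure D4:**
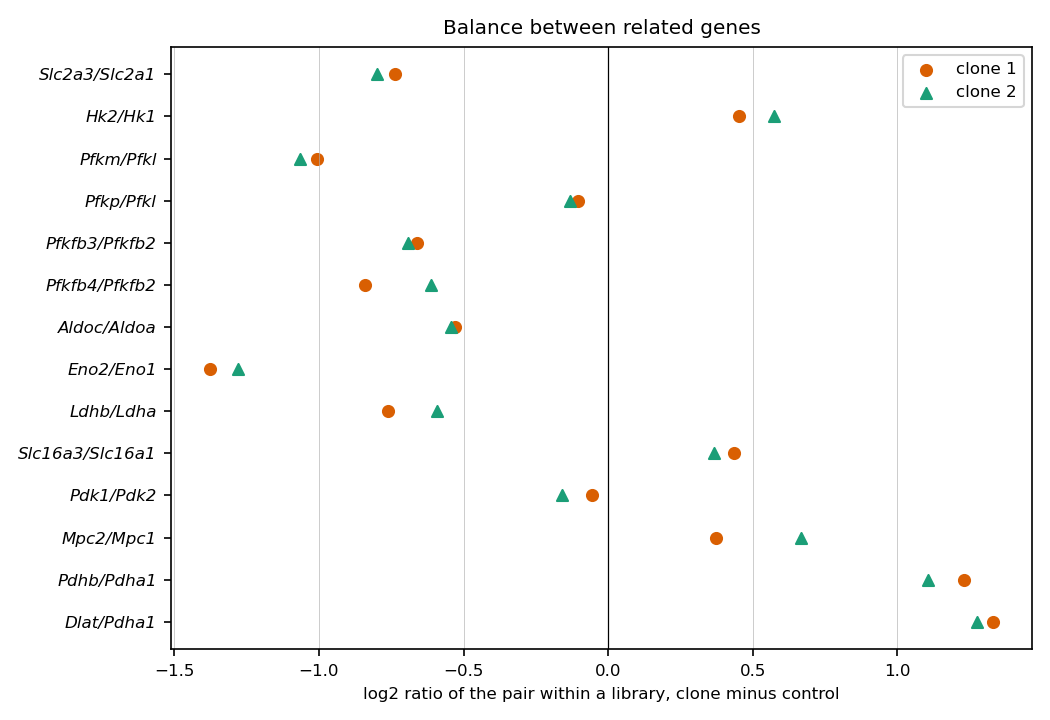
Change in the log2 ratio of paired isozymes or subunits, clone minus control, with 1 point per clone. Eno2/Eno1 and Pfkm/Pfkl lie near -1 or below in both clones, and Hk2/Hk1 and Slc16a3/Slc16a1 lie above 0.

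The clones were compared with each other as well. Among the 30 members with at least 100 control reads, the ratio of clone 2 to clone 1 ran from 0.894 to 1.25. Its 95% counting interval left out 1 for 5 tested members: Pfkl (1.08), Tpi1 (1.06), Pkm (0.970), Slc16a3 (0.926) and Mpc1 (0.894). Each of these differences was small beside the distance of the same gene from the control.

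Gene position was examined because the median fold change differed between chromosomes. The median log2 fold change was 0.26 on chromosome 7 (Gpi1, Aldoa, Ldha), -0.28 on chromosome 15 (Pfkm), -0.22 on chromosome X (Pgk1, Pdha1, Pfkfb1) and 0.12 on chromosome 17 (Mpc1). Against the median of their own chromosome, Gpi1 remained higher by 0.67, Ldha by 0.48 and Pgk1 by 1.05, while Pdha1 stood at -1.04 and Mpc1 at -0.98. Aldoa came to 0.17 and Pfkm to -0.20, so these 2 lay close to the median of their whole chromosome. Over the 25 tested members outside chromosomes 7, 15, 18 and X the median was 0.24. What lies behind the chromosome medians was not tested.

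**Figure D5:**
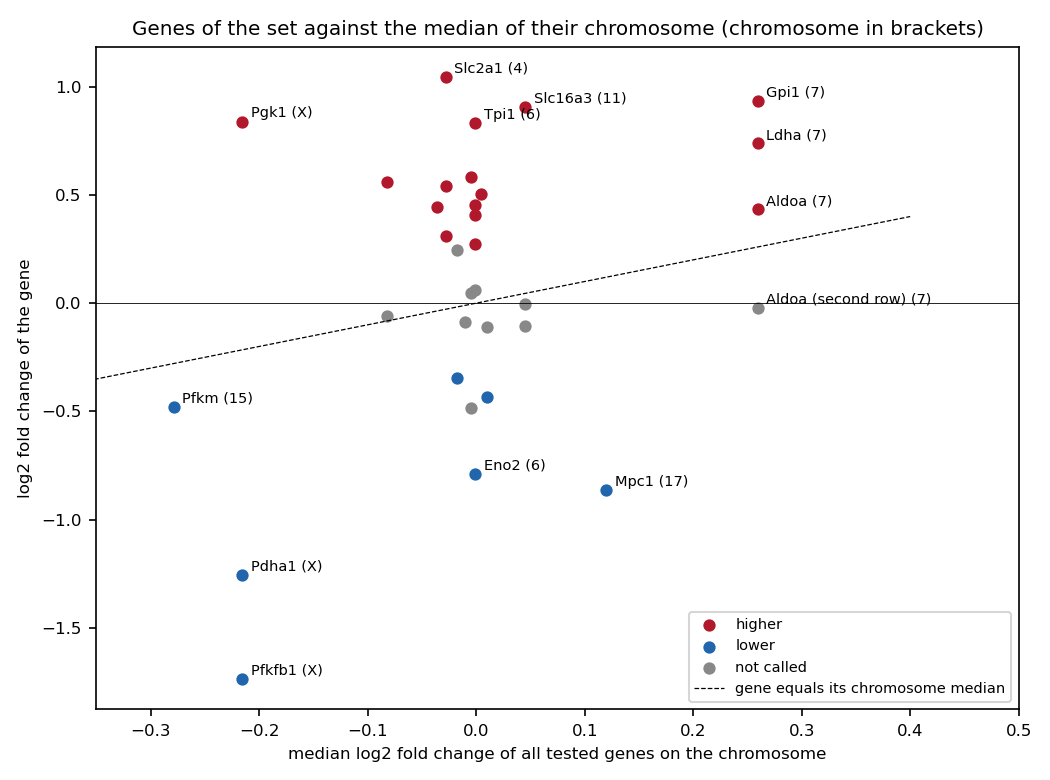
Log2 fold change of each tested member against the median of all tested genes on its chromosome. Pgk1 and Pdha1 share chromosome X and lie on opposite sides of its median, and of the called members on chromosome 7 Aldoa lies nearest to the median.

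Neighbouring pathways held calls in both directions. Of 90 tested genes on 6 further lists, edgeR called 20 higher and 27 lower, shares near the 24.3% and 25.8% of all tested genes, and DESeq2 called 11 and 11. The counts of single lists below are small and are to be read against the same shares. Other isoforms and partners of glycolysis gave 2 higher and 7 lower of 21, with a median log2 fold change of -0.10. Bpgm, which makes 2,3-bisphosphoglycerate, fell from 48.3 to 26.2 ± 1.67 CPM (clone SD, n = 2), the gluconeogenic phosphatase gene Fbp2 had a log2 fold change of -1.60, and Emb, a chaperone of monocarboxylate transporters, had -0.46. The pentose phosphate and hexosamine branches gave 3 higher and 7 lower of 14, with Tkt, transketolase, rising from 220 to 435 ± 14.1 CPM (log2 fold change 0.98) and Prps1 (-0.90), Gfpt1 (-0.79) and Uap1 (-0.34) falling.

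The remaining lists were mixed. Glycogen handling gave 2 higher and 3 lower of 11, with Gys1, muscle glycogen synthase, at 0.70 and Pgm1 at -0.32 on the log2 scale. The glycerol phosphate and malate-aspartate shuttles gave 2 higher and 3 lower of 10, with Gpd2 at 0.35 and the aspartate-glutamate carrier gene Slc25a13 at -1.20. The tricarboxylic acid cycle and anaplerosis gave 8 higher and 7 lower of 22, with Idh2 at 0.88, Fh1 at 0.50, Sdha at 0.32 and malic enzyme Me1 at -0.41. Among hypoxic and glucose-responsive regulators 3 of 12 rose, a share near the 24.3% of all tested genes. They were Egln3 and Egln1, prolyl hydroxylases that mark HIF alpha subunits for breakdown, at 1.37 and 0.50, and Arnt, the HIF beta subunit, at 0.63. Transcripts of Hif1a (log2 fold change 0.02; edgeR adjusted p = 0.791) and Myc (0.10; edgeR adjusted p = 0.215) did not pass.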

How the data were processed

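Libraries were stranded mRNA preparations, per the labels' protocols. The deposited raw counts are whole reads per gene from STAR 2.5's gene counting with Gencode M16 on GRCm38, per the file headers. Tools named in the submitters' processing notes are STAR 2.5.3, bcl2fastq and DESeq2. Whether the counting used strand is not stated in the sources used here. The authors' RPM columns served as a check of the library totals. The authors' deposited table gives a log2 fold change and p-values with their Benjamini-Hochberg adjustment, from DESeq2, per the file headers.

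Genes were filtered with filterByExpr (minimum count 10), leaving 13705 of 22976, and tested, two-sided, with edgeR 4.0.16 (quasi-likelihood F test, legacy option off, TMM factors, Benjamini-Hochberg threshold 0.05) in R 4.3.3. The SE was approximated as the size of the log2 fold change over the square root of F. Each gene has 1 residual degree of freedom, and the quasi-likelihood fit adds information on the spread from all other genes. The small p-values therefore rest on that shared spread and not on the clone libraries of the single gene alone. The test was first run on simulated counts drawn with the spread fitted to these libraries. That run cannot show how far the single control or the founder cells vary. CPM are TMM-scaled, ratios within a library used a prior count of 1, and positions and lengths came from Gencode M21. The length of a gene is that of all its annotated exons merged, not of 1 transcript. Totals of 11307034 to 11700755 counts set the precision. Reads shared between near-identical genes may be split.

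The members, lists and tests were chosen with earlier results of these data known. Every member is given. Full statistics go to the 12 called members with the lowest p and those with an absolute log2 fold change of at least 1. Each further list names up to 4 called genes with the lowest p and a mean of at least 5 CPM. Dld, Pdhx, Bsg, Hif1a and Myc, which did not pass, are named as well. Alternatives were DESeq2 1.42.0, limma-voom (limma 3.58.1), RLE factors, other filters, robust and legacy fits, prior counts of 0.5 and 5, and leaving out each clone. Preset variations of 0.1 and 0.2 and the unfiltered legacy fit were chosen after seeing the data.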

Additional observations from a re-analysis of the deposited data

How the results depend on the processing

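The 16 higher and 7 lower member calls were also 16 and 7 with RLE factors, a robust or legacy fit and limma-voom. With a filter at a mean of 1 CPM they were again 16 and 7, but Pfkfb1 was filtered out and Pfkfb4 passed (edgeR adjusted p = 0.0478). Without the low-count filter edgeR called 0 members higher and 0 lower (4 calls among 22976 genes). At an unadjusted edgeR p below 0.05 there were 16 higher and 8 lower of 35 member rows, and 3670 and 3417 of all 22976 genes. The unfiltered legacy fit called 0 and 0 members. Its unadjusted counts were 16 and 7 of the member rows, and 3289 and 3271 of all genes. DESeq2 called 14 higher and 4 lower, losing Slc2a3, Hk2, Pfkfb1, Pfkfb3 and Mpc2. With preset variation of 0.1 there were 10 and 5, and of 0.2 there were 0 and 1. The further pathway lists, with 20 higher and 27 lower, had 0 and 0 without the filter, 0 and 0 with the legacy fit unfiltered, 11 and 11 by DESeq2, 9 and 10 at a variation of 0.1, and 1 and 5 at 0.2. The causes were not tested.

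Leaving out 1 clone leaves no residual degree of freedom, so only values were taken: the members' median log2 fold change ranged from 0.20 to 0.28. The ratio of Pdk4 to Pdk2, on at most 8 Pdk4 reads, was -2.56 on the log2 scale and -1.14 with a prior count of 5. No paired analysis was possible because 1 control library stands against 2 clone libraries. Depth limits Pdk3, Pdk4 and Pfkfb1.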
